A study of Mus musculus with 8 samples.

Results

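Serotonin receptor genes were followed in mouse lumbar dorsal root ganglia after ligation of a spinal nerve. The 10 genes are Htr1a, Htr1b, Htr1d, Htr1f, Htr2a, Htr2b, Htr2c, Htr3a, Htr3b and Htr7, taken by name from a table of 53801 genes, and all 10 were found and passed the filter on low counts of the injury comparison. RNA was sequenced in 8 libraries, and each pooled the L3, L4 and L5 ganglia of 1 side from 3 mice. The injured libraries, at days 1, 3 and 7 with 1 library a day, came from the left side of mice whose left L4 spinal nerve was tightly tied under isoflurane anaesthesia, followed by lidocaine and bupivacaine in the wound. The contralateral libraries came from the right side of the same mice at the same days. The no injury libraries are the left and the right side of a further pool, labelled WT and without ligation. Whether that pool had the sham operation of the protocol is not stated. All mice are given as male C57BL/6J, with no age, and L3 and L5 ganglia, whose nerves were not tied, are part of every injured library.

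Serotonin reaches sensory neurons from platelets and mast cells in the periphery and from descending brainstem fibres at the central terminals. Most of its receptors couple to G proteins. The Htr1 group couples to Gi/o and dampens excitability and transmitter release, the Htr2 group couples to Gq and phospholipase C, and Htr7 couples to Gs and raises cyclic AMP. The Htr3 genes instead encode subunits of a cation channel that serotonin opens directly. In sensory neurons these receptors are known for roles in pain, migraine and itch, and the triptan drugs act on the products of Htr1b, Htr1d and Htr1f.

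The libraries held 20488115 to 21652688 counted reads, and 3 reads, up to which a gene with no read could still be present, equal 0.139 to 0.146 CPM (read counts scaled to library size). Atf3, a stress-induced transcription factor of injured neurons, stood at 464, 629 and 618 CPM in injured libraries of days 1, 3 and 7, against 126, 167 and 110 CPM in contralateral libraries and 10.89 and 10.99 CPM without injury. The neuropeptide gene Gal stood at 46.3, 466 and 536 CPM in injured, 22.1, 133 and 83.5 CPM in contralateral and 8.34 and 10.3 CPM in no injury libraries. Both marker genes were thus higher on the injured side of every operated pool. Both were also higher in every contralateral library than in either no injury library. The contralateral side, the reference of the injury comparison, was therefore not free of these injury markers. The source of that signal was not tested. The male sex of the labels did not hold for the no injury pool, where Xist had 4931 and 4129 reads and Y-linked Kdm5d 0 reads, against at most 3 reads of Xist and 13.1 to 16.7 CPM of Kdm5d elsewhere. A difference between operated and no injury pools therefore cannot be told apart from sex or from a difference between pools. The sum of 10 pan-neuronal genes was 18480 to 19280 CPM in injured libraries, 20660 to 21170 CPM in contralateral libraries and 19560 to 19990 CPM without injury. In whole ganglia, fewer cells of a type and less RNA per cell cannot be told apart.

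Htr3a was the receptor gene with the highest level, measured as CPM per kilobase of exon. It averaged 71.2 CPM per kilobase over the 8 libraries, with a range of 35.8 to 99.8. Htr1d followed at 12.3, Htr1b at 9.78, Htr3b at 8.62, Htr7 at 5.88, Htr1f at 3.53, Htr2a at 3.26 and Htr1a at 2.74. Htr2b at 0.128 and Htr2c at 0.0613 CPM per kilobase closed the order. Only the gaps between Htr3a and Htr1d and between Htr1a and Htr2b were free of overlap, while each other neighbour in this order overlapped the next in its range over the libraries. Per kilobase of the longest transcript the level of Htr2c was 0.117.

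**Figure D1:**
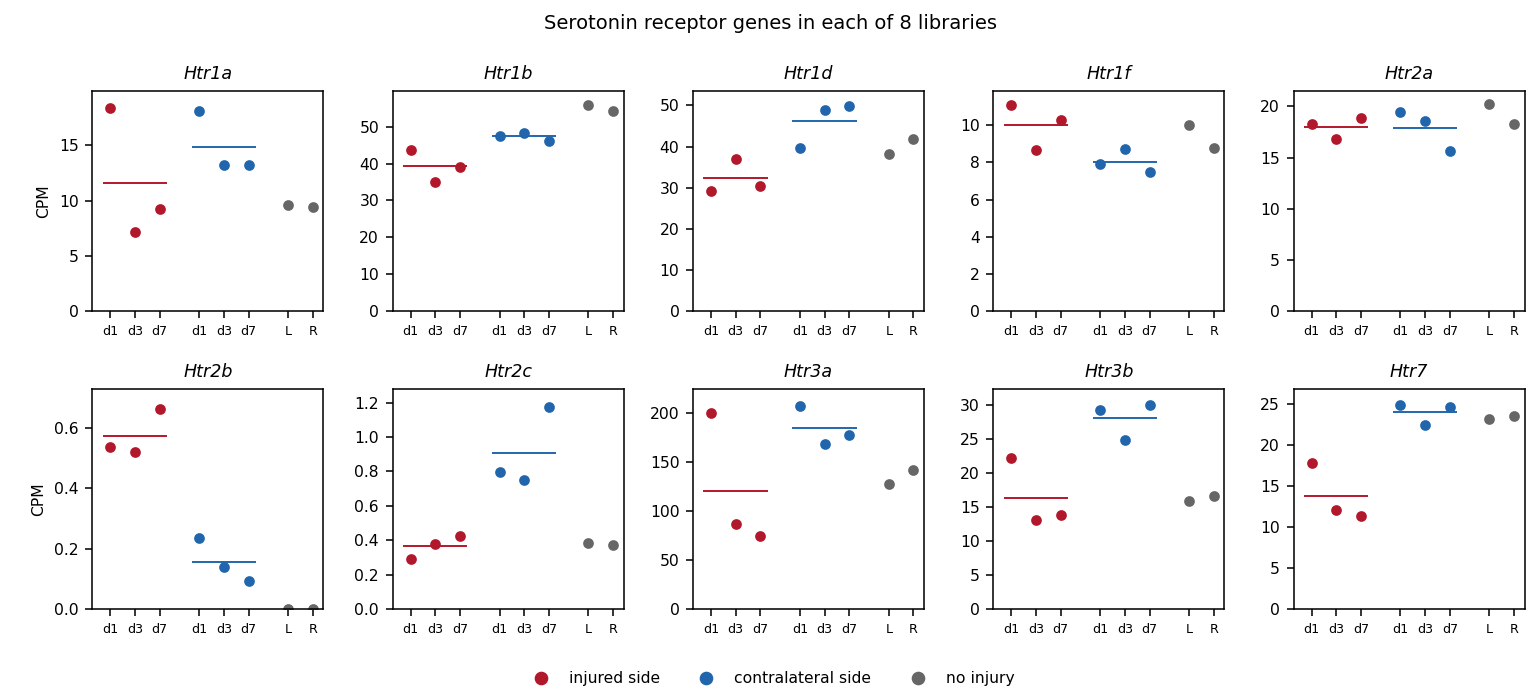
Levels of the 10 receptor genes in CPM, 1 panel a gene with its own linear axis, for injured libraries (days 1, 3 and 7), contralateral libraries (days 1, 3 and 7) and no injury libraries (left, right); each point is 1 library and the lines are means of the 3 operated libraries of a side. Htr3a lies between 74.6 and 208 CPM, and Htr2b and Htr2c stay below 1.2 CPM.

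The main comparison set the injured against the contralateral ganglia within each operated pool of mice. Of the 10 receptor genes 5 were lower on the injured side (Htr1b, Htr1d, Htr2c, Htr3b and Htr7), 1 was higher (Htr2b), and 4 were not called (Htr1a, Htr1f, Htr2a and Htr3a), at an adjusted p under 0.05 by edgeR's quasi-likelihood test with the pool as a block. Across all 16244 genes tested 8.02% were lower and 10.1% were higher. Htr2b and Htr2c, at 0 to 14 and 6 to 25 reads a library, passed the filter only through the group where each is high, so their direction was fixed by their being tested and their calls add nothing to this count. The median log2 fold change was -0.48 over the 10 receptor genes and 0.02 over all genes. Since no day has another pool, the error here combines how far the side difference varied over pools of different days with the left-right difference of the no injury pool. With side of the body as a further term, which only the no injury pool sets, 0 receptor genes were called, against 6 higher and 0 lower of all genes. At an unadjusted p under 0.05, 1 receptor gene was lower under that term, against 641 of all genes.

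**Figure D2:**
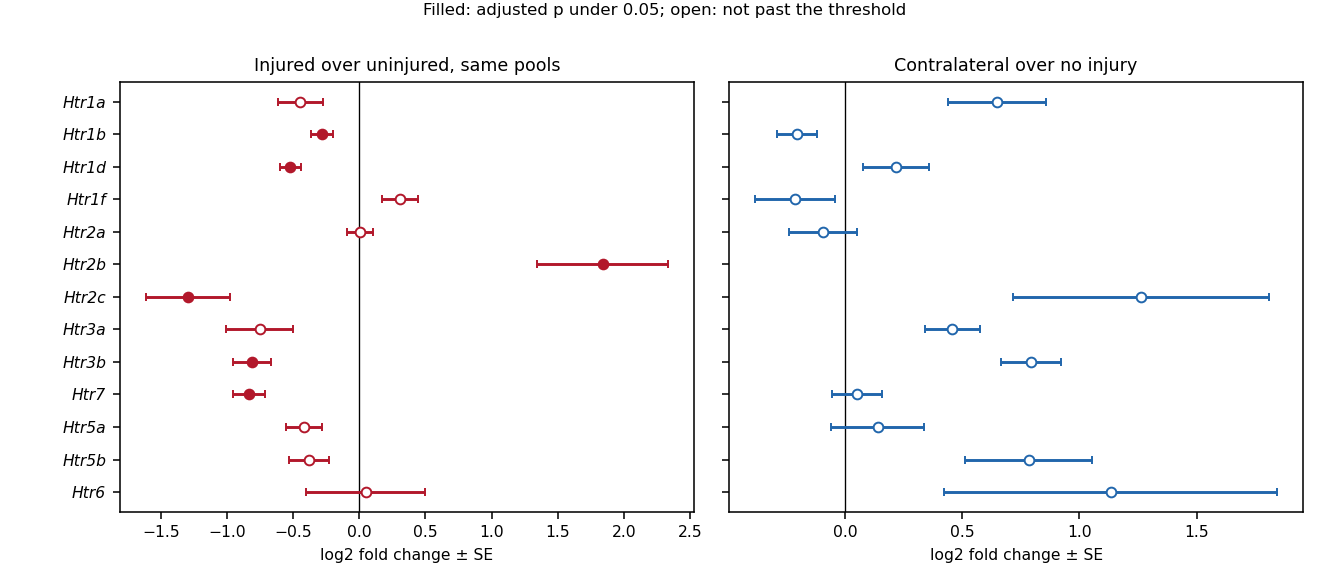
Log2 fold changes with their SE from edgeR for the 10 receptor genes and Htr5a, Htr5b and Htr6, injured over uninjured within pools (left panel) and contralateral over no injury (right panel); filled points passed an adjusted p of 0.05 and open points did not. The filled points are Htr2b to the right of 0 and Htr1b, Htr1d, Htr2c, Htr3b and Htr7 to the left, and Htr2b has no point in the right panel because it was not tested there.

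Of the ion channel subunits, Htr3b was called lower on the injured than on the contralateral side. Htr3b, which forms channels only together with Htr3a subunits (chromosome 9, 48935008 to 48964990, GRCm38), stood at 22.3, 13.1 and 13.9 CPM in injured libraries of days 1, 3 and 7, at 29.3, 24.97 and 30.1 CPM in contralateral libraries and at 15.9 and 16.7 CPM without injury. The injured libraries all lay below the contralateral ones, and their range spans the no injury values. Within pools Htr3b stood at 0.570 of the contralateral level (log2 -0.81 ± 0.14, SE, 3 injured pools; adjusted p = 0.0145), lower in 3 of 3 pools. Without the day 3 pool its adjusted p was 0.0736 and without the day 7 pool 0.0768. With no replicate block the log2 value was -0.51 (adjusted p = 0.24). Set against the no injury libraries alone it was 0.02 (adjusted p = 0.97). That fit, here and below, takes the left and right libraries of the no injury pool as separate samples, though they share mice. Its adjusted p therefore does not measure spread between pools without injury.

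Htr3a encodes the subunit that every such channel needs and lies beside Htr3b (chromosome 9, 48899213 to 48911099). Its level was 200, 87.2 and 74.6 CPM in injured libraries of days 1, 3 and 7, against 208, 169 and 177 CPM in contralateral libraries and 128 and 142 CPM without injury. At day 1 both sides were close, whereas at days 3 and 7 the injured libraries were the lowest of all 8. The means were 121 ± 69.2 CPM in injured and 185 ± 20.6 CPM in contralateral libraries (SD, n = 3 each), and 135 CPM without injury. The fitted log2 value of -0.75 ± 0.25 (SE) did not pass (edgeR adjusted p = 0.112). Without the day 1 pool it was -1.13 (adjusted p = 3.35e-05), without day 3 -0.62 (0.435) and without day 7 -0.51 (0.32). Against the no injury libraries alone it was -0.15 (adjusted p = 0.849). The antisense gene Gm32335, whose reads cannot be told apart without the strand setting, reached at most 0.0482 CPM.

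Per kilobase, the ratio of the Htr3a to the Htr3b level was 10.4, 7.73 and 6.20 in injured libraries of days 1, 3 and 7, against 8.21, 7.83 and 6.83 in contralateral libraries and 9.32 and 9.85 without injury. Summed over the 10 genes, receptor level was 141, 78.0 and 72.5 CPM per kilobase in injured, 153, 133 and 139 in contralateral and 108 and 116 in no injury libraries. Htr3a made up 68.2%, 53.7% and 49.4% of that sum in injured libraries, against 65.4%, 60.8% and 61.2% in contralateral and 56.8% and 59.2% in no injury libraries. The injured libraries of days 3 and 7 thus held the smallest sums and the smallest Htr3a shares of the 8.

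Against the contralateral side, Htr7 was lower by about as much as Htr3b. Htr7, the Gs-coupled receptor (chromosome 19, 35958734 to 36057507), stood at 17.8, 12.1 and 11.4 CPM in injured libraries, at 24.9, 22.5 and 24.7 CPM in contralateral libraries and at 23.1 and 23.5 CPM without injury. Every injured library lay below all 5 others, and the contralateral and no injury ranges overlapped. Within pools Htr7 stood at 0.562 of the contralateral level (log2 -0.83 ± 0.12, SE, 3 injured pools; adjusted p = 0.00698) and was lower in 3 of 3 pools. The call held without each pool in turn, with adjusted p between 6.49e-05 and 0.0427. Against the no injury libraries alone its log2 value was -0.76 (adjusted p = 0.0868).

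Among the Gi/o-coupled receptors, Htr1d and Htr1b fell while Htr1a and Htr1f did not pass. Htr1d, a triptan target of trigeminal and spinal sensory neurons (chromosome 4, 136423524 to 136444398), had 29.3, 37.0 and 30.4 CPM in injured, 39.7, 48.9 and 49.9 CPM in contralateral and 38.1 and 41.8 CPM in no injury libraries. All injured values were below all others. The log2 fold change was -0.52 ± 0.08 (SE, 3 injured pools; adjusted p = 0.00698), lower in 3 of 3 pools. It was called without each pool in turn, with adjusted p between 0.00114 and 0.0471, and against the no injury libraries alone it was -0.30 (adjusted p = 0.145).

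Htr1b, another triptan target and a brake on release from nerve terminals (chromosome 9, 81628291 to 81633828), had 43.6, 34.9 and 39.2 CPM in injured libraries, 47.5, 48.4 and 46.2 CPM in contralateral libraries and 55.7 and 54.1 CPM without injury. The 3 groups did not overlap, with injured lowest and no injury highest. Its log2 fold change of -0.28 ± 0.08 (SE, 3 injured pools) passed narrowly (edgeR adjusted p = 0.0498), lower in 3 of 3 pools. The call was lost without the no injury pool (adjusted p = 0.106), without day 3 (0.211) and without day 7 (0.164). Its antisense gene D430036J16Rik stood at 2.58 to 3.71 CPM in the 8 libraries.

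Htr1a, a widespread inhibitory receptor (chromosome 13), had 18.4, 7.14 and 9.23 CPM in injured, 18.1, 13.2 and 13.3 CPM in contralateral and 9.59 and 9.47 CPM in no injury libraries. Both sides were highest at day 1, where they were alike, and at days 3 and 7 the injured side was the lower. The log2 value of -0.44 ± 0.17 (SE) did not pass (adjusted p = 0.12), was -0.72 without the day 1 pool (adjusted p = 0.00338), and was 0.29 against the no injury libraries alone (adjusted p = 0.678). Htr1f, the target of the ditan drugs (chromosome 16), had 11.1, 8.65 and 10.3 CPM in injured, 7.89, 8.70 and 7.48 CPM in contralateral and 9.98 and 8.77 CPM in no injury libraries. The injured range overlaps both others. The contralateral and no injury ranges lie apart only by the step from 8.698 to 8.775 CPM. The log2 value of Htr1f was 0.31 ± 0.14 (SE; adjusted p = 0.15).

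Of the Gq-coupled genes, Htr2a did not pass, and Htr2b and Htr2c were called at very low counts. Htr2a, a receptor that sensitises nociceptors (chromosome 14), had 18.3, 16.8 and 18.9 CPM in injured, 19.5, 18.6 and 15.7 CPM in contralateral and 20.3 and 18.2 CPM in no injury libraries. All 3 groups overlapped, and the log2 value was 0.0046 ± 0.0999 (SE; adjusted p = 0.981).

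Htr2b, known from heart valve and vessel cells as well as neurons (chromosome 1, 86099026 to 86111970), was nearly absent without injury. It had 11, 11 and 14 reads in injured libraries of days 1, 3 and 7, 5, 3 and 2 reads in contralateral libraries and 0 reads in both no injury libraries. In CPM these are 0.537, 0.520 and 0.663 in injured against 0.235, 0.140 and 0.0941 in contralateral libraries. Every injured library exceeded every other one. The log2 fold change was 1.84 ± 0.49 (SE, 3 injured pools; adjusted p = 0.0457), higher in 3 of 3 pools. Htr2b passed the filter only through its injured libraries, so a rise was built into its being tested. The call was lost without the no injury pool (adjusted p = 0.0658), without day 3 (0.154) and without day 7 (0.225). Pooled over libraries, the injured level was 8.11 times and the contralateral level 2.21 times the no injury limit of 3 reads over both libraries (0.0708 CPM). The limit covers counting error of the no injury libraries only. Counting error of the 36 injured and 10 contralateral reads is left out, so these ratios are not lower bounds. Htr2b lies within Psmd1, a proteasome gene on the opposite strand at 264 to 290 CPM, and without the strand setting reads of the 2 cannot be told apart.

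Htr2c, the receptor whose RNA is edited in the brain (chromosome X, 146962513 to 147197277), was also scarce. It had 6, 8 and 9 reads in injured libraries, 17, 16 and 25 reads in contralateral libraries and 8 and 8 reads without injury. In CPM these are 0.293, 0.378 and 0.426 in injured, 0.798, 0.748 and 1.18 in contralateral and 0.386 and 0.370 in no injury libraries. The contralateral libraries stood above all others, and injured and no injury values overlapped. Htr2c was fitted at 0.408 of the contralateral level (log2 -1.29 ± 0.32, SE, 3 injured pools; adjusted p = 0.0305), lower in 3 of 3 pools. It passed the filter only through its contralateral libraries, so a fall was built into its being tested. Its adjusted p was 0.0644 without the no injury pool, 0.0907 without day 3, 0.172 without day 7 and 0.17 with no replicate block.

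To set these genes beside their promoters, the 250 bases before the annotated start were read from RefSeq (GRCm38.p6), where 9 of the 10 genes had an entry and Htr3a had none. They are shown for Htr7 and Htr3b, the called genes above 1 CPM with the largest fitted falls. Htr2b and Htr2c, the scarce genes whose windows held a match to a loose AP-1 pattern, are also shown. Each is written 5′ to 3′ on the gene's strand, and capitals mark TGANTCA, where N is any base. This is a loose form of the AP-1 motif of the Fos and Jun family, which has C or G at the centre.
Htr3b: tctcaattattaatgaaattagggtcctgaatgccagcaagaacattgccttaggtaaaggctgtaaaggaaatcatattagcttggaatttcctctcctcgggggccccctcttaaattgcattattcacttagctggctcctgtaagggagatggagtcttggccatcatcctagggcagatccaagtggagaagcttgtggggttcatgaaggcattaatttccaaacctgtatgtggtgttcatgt
Htr7: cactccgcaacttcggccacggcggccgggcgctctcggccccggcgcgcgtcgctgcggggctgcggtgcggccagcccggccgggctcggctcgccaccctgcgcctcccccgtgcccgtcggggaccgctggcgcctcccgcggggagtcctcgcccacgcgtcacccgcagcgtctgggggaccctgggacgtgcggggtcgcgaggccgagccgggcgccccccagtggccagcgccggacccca
Htr2b: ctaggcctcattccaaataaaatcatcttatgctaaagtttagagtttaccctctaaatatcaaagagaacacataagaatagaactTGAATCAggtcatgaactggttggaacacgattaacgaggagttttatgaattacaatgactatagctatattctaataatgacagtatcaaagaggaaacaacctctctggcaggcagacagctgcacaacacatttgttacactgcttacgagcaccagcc
Htr2c: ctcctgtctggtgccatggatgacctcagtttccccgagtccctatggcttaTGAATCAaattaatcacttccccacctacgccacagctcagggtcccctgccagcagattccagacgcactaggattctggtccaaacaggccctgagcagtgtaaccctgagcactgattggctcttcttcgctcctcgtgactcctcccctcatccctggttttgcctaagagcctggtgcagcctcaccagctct
These lie at chr9:48964991-48965240 (minus strand) for Htr3b, chr19:36057361-36057610 (minus) for Htr7, chr1:86111981-86112230 (minus) for Htr2b and chrX:146962263-146962512 (plus) for Htr2c. The RefSeq start of Htr7 differs from the gene position given above, which reaches 36057507, so its window lies partly within that gene. Windows of Htr1a, Htr1d, Htr1f and Htr2a, not shown, also overlap their genes in this way. The motifs searched on both strands were the loose AP-1 form, the cyclic AMP response element TGACGTCA, the STAT motif TTCNNNGAA, the GC box GGGCGG and the TATA box TATAAA. A match to the loose AP-1 form began at -163 in Htr2b and at -198 in Htr2c, and in no other receptor window. Such matches were found in 6.75% of all 32851 windows of this length. Both receptor matches read TGAATCA, with A at the centre, so neither is the usual AP-1 motif. The GC box was found in the windows of Htr1a, Htr1d and Htr2a (32.7% of all windows). No receptor window held the cyclic AMP element (1.55%), the STAT motif (7.02%) or the TATA box (12.4%). Base composition varied widely, with 82% G and C in Htr7, 44% in Htr3b, 37.6% in Htr2b and 55.6% in Htr2c, against a median of 52.4% over all windows. A match is a description of letters and not a binding site.

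Time was then added as the change of the side difference per doubling of days, again with the pool as a block. The log2 ratio of the injured to the contralateral side of Htr3a was -0.02 at day 1, -0.99 at day 3 and -1.25 at day 7, and left over right without injury it was -0.17. For Htr3b these ratios were -0.36, -0.97 and -1.11 (-0.09 without injury), and for Htr7 -0.46, -0.93 and -1.12 (-0.04). All 3 genes were thus further down at each later day. Htr1a had ratios of 0.05, -0.92 and -0.52, Htr1b -0.09, -0.51 and -0.24, and Htr1d -0.41, -0.44 and -0.72. Htr2b had 0.97, 1.36 and 2.00 and Htr2c -1.18, -0.87 and -1.29. Over the 10 genes the median ratio was -0.08 at day 1, -0.69 at day 3 and -0.62 at day 7, against 0.01, 0.02 and 0.00 over all genes tested. No single day has a replicate.

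The trend passed for 0 of the 10 genes by edgeR, as for 0% of all genes tested, and 3 receptor genes had a falling trend at an unadjusted p under 0.05, against 703 of all 16244 genes. Htr3a changed by -0.45 ± 0.07 log2 units per doubling of days (SE; unadjusted p = 0.000318, adjusted p = 0.167), Htr3b by -0.27 (adjusted p = 0.332) and Htr7 by -0.24 (adjusted p = 0.362). DESeq2, an alternative added after the data were seen, called Htr3a alone among the 10 (adjusted p = 4.18e-04) and 11 falling genes of 11357 in all, and the adjusted p of Htr3a lay between 4.18e-04 and 0.965 over its 7 alternatives. Without the day 3 pool Htr3a and Htr3b were called, with 238 falling genes in all. Without the day 7 pool Htr1a, Htr3a and Htr3b were called, with 570 in all. Without day 1, or without the no injury pool, 0 receptor genes were called. With an operated pool left out, the trend fits the other operated pools exactly. The residual error of a gene then comes only from left against right of the no injury pool. Such calls therefore measure no spread between operated pools.

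**Figure D3:**
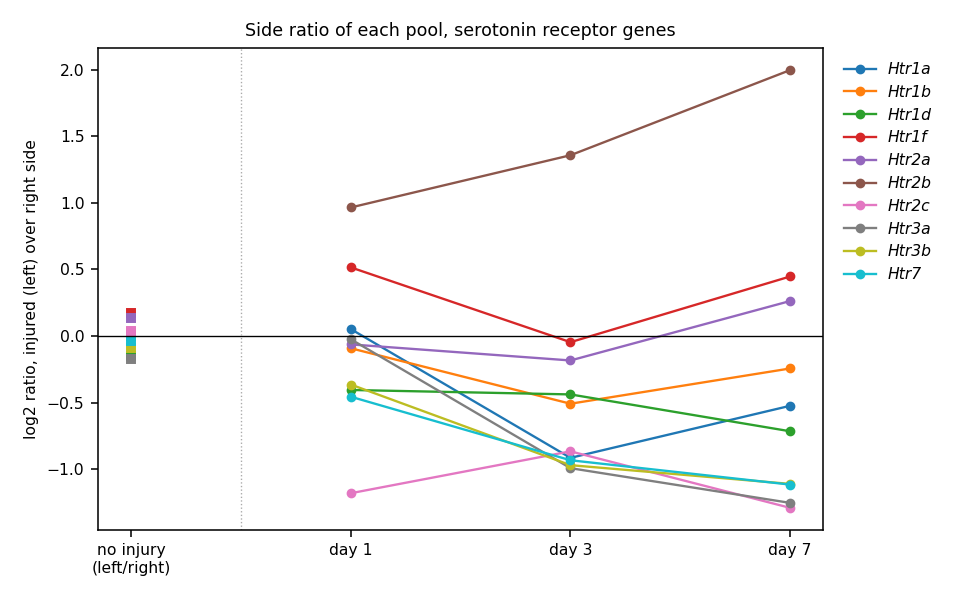
Log2 ratio of the left over the right side of each receptor gene (vertical axis) in the no injury pool (squares) and in the operated pools of days 1, 3 and 7 (circles joined by lines, injured side on the left); each point is 1 pool. Htr3a lies at -0.02 at day 1 and -1.25 at day 7, Htr2b lies at 0.97 to 2.00, and in the no injury pool all 10 genes lie between -0.17 and 0.17.

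The contralateral side was next set against the pool without injury, to see whether the uninjured ganglia of operated mice stand apart. Of the 9 receptor genes tested 0 were called by edgeR. Across 16747 genes 0.125% were higher and 0.155% lower. At an unadjusted p under 0.05, 4 receptor genes were higher and 1 was lower on the contralateral side, against 687 higher and 793 lower of all 16747 genes. By DESeq2 2 were called higher, Htr3a and Htr3b, against 85 higher and 80 lower of 16598 genes. Htr3b averaged 28.1 ± 2.75 CPM in contralateral libraries (SD, n = 3) and 16.3 CPM without injury, with no overlap (log2 0.79 ± 0.13, SE; edgeR adjusted p = 0.0703, DESeq2 0.00207). Htr3a averaged 185 ± 20.6 CPM in contralateral libraries (SD, n = 3) and 135 CPM without injury (log2 0.46 ± 0.12, SE; edgeR adjusted p = 0.295, DESeq2 0.0438). Without the contralateral library of day 1 the log2 values were 0.32 for Htr1d, 0.37 for Htr3a and 0.765 for Htr3b. Without the library of day 3 that of Htr3b was 0.86, and without day 7 it was 0.74. These fits set the remaining contralateral libraries against 1 summed no injury sample. They hold too little measure of the spread between pools, so their calls are not given.

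Htr1a had a log2 value of 0.65 ± 0.21 (SE; edgeR adjusted p = 0.398), Htr2c 1.26 ± 0.55 (0.564), Htr1b -0.20 (0.546) and Htr1f -0.21 (0.823), and their contralateral and no injury libraries did not overlap. Htr7 had 0.05 (adjusted p = 0.95), Htr1d 0.22 (0.755) and Htr2a -0.09 (0.926). In Htr1f the gap between contralateral and no injury libraries was only from 8.698 to 8.775 CPM. The share of all genes without such overlap was not counted. In Htr7 the contralateral side was close to the level without injury. In Htr3b only the mean of the injured libraries was (16.4 against 16.3 CPM), with day 1 above both no injury libraries and days 3 and 7 below.

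The genes that make, store, take up and break down serotonin contributed 1 call, the transporter. Slc6a4 encodes the serotonin transporter, which clears serotonin from outside the cell (chromosome 11, 76998603 to 77032340). It had 3.32, 41.9 and 52.9 CPM in injured libraries of days 1, 3 and 7, against 1.74, 11.2 and 7.91 CPM in contralateral libraries and 0.193 and 0.416 CPM without injury. Each injured library exceeded the contralateral library of its pool, and all 6 operated libraries exceeded both no injury libraries. The log2 fold change within pools was 2.05 ± 0.31 (SE, 3 injured pools; adjusted p = 0.0146), higher in 3 of 3 pools. The call was lost without the day 3 pool (adjusted p = 0.0917), without the filter (0.0796), with side as a further term (0.594) and with no replicate block (log2 2.91, adjusted p = 0.134). Against the no injury libraries alone the log2 value was 6.70 (adjusted p = 0.0643). Contralateral over no injury it was 4.49 ± 1.82 (SE; adjusted p = 0.69). Without the contralateral library of day 1 it was 4.95, without that of day 3 3.95 and without that of day 7 4.39.

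Of the 12 genes in that list 11 were tested, 1 was higher and 0 lower, with a median log2 value of -0.05. Tph1, the synthesis enzyme of peripheral tissues, had 4.83, 0.615 and 0.379 CPM in injured, 1.83, 0.468 and 0.377 CPM in contralateral and 0.482 and 0.508 CPM in no injury libraries (log2 0.82, adjusted p = 0.139), and was highest at day 1 on both sides. Markers of platelets and mast cells, which hold serotonin, stood low. The sum of 5 platelet genes was 20.6 to 27.2 CPM in injured, 11.9 to 35.03 CPM in contralateral and 11.5 to 12.4 CPM in no injury libraries. Gp1bb, a platelet adhesion receptor gene, was higher on the injured side (log2 0.77 ± 0.15, SE; adjusted p = 0.0139), 1 of 4 tested. Ppbp reached 13.6 CPM in the contralateral library of day 1. The sum of 7 mast cell genes was 7.03 to 19.5 CPM in injured, 7.81 to 11.3 CPM in contralateral and 15.98 to 16.5 CPM in no injury libraries. Cma1 was higher on the injured side (log2 1.38 ± 0.34, SE; adjusted p = 0.0292), 1 of 6 tested, with a list median of 0.45. It had 0.586, 2.13 and 3.84 CPM in injured libraries of days 1, 3 and 7, 0.517, 0.608 and 1.13 CPM in contralateral and 2.17 and 2.45 CPM in no injury libraries. Ms4a2, another mast cell gene, went the other way without being called (log2 -1.27, edgeR adjusted p = 0.116). The part of these cells in the values of Slc6a4 and Tph1 was not tested.

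**Figure D4:**
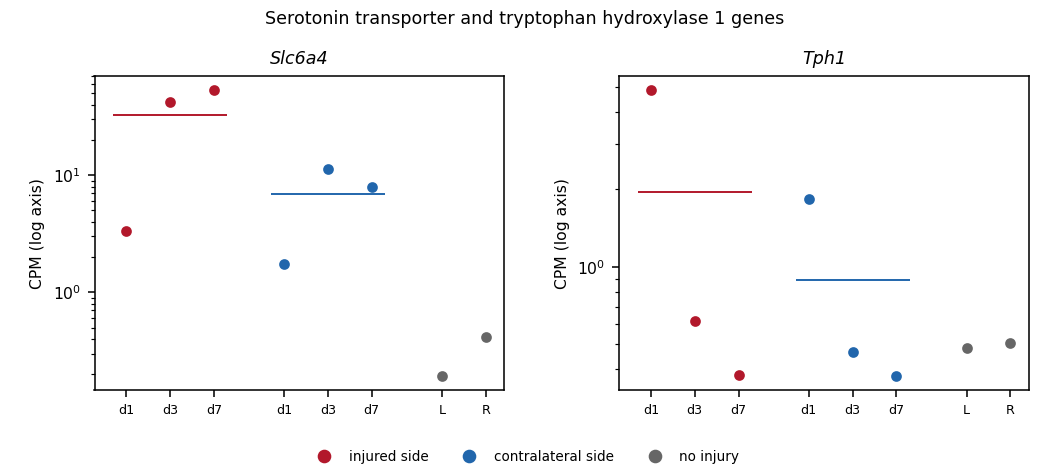
Levels of Slc6a4 and Tph1 in CPM on log axes for injured, contralateral (each at days 1, 3 and 7) and no injury libraries (left, right); points are libraries and lines are means of 3. Slc6a4 is at 41.9 and 52.9 CPM in the injured libraries of days 3 and 7, and Tph1 is highest at day 1, at 4.83 CPM in the injured and 1.83 CPM in the contralateral library.

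Of 3 further receptor genes 0 were called by edgeR. Htr5a had a log2 value of -0.42 ± 0.13 (SE; adjusted p = 0.0678), Htr5b -0.38 (0.117) and Htr6, at 0.193 to 0.663 CPM, 0.05 (0.954).

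In the signalling lists genes were called in both directions, beside the 18.1% of all genes called in either direction. Among Gi/o genes 3 of 16 tested were lower and 1 higher, with a median log2 value of -0.15. Kcnj3, a potassium channel opened by Gi/o-coupled receptors, fell by 0.56 (adjusted p = 0.00717), the G protein gene Gnai1 by 0.40 (0.00505) and the adenylyl cyclase gene Adcy9 by 0.31 (0.0257), while Gnai3 rose by 0.29 (0.0187). Among Gq genes 4 of 13 were lower and 2 higher (median -0.19). The calcium release channel gene Itpr1 rose by 1.19 (0.00626), and the kinase genes Prkca and Prkcb fell by 0.53 (0.00722) and 0.35 (0.0181) and the phospholipase gene Plcb3 by 0.56 (0.0188). Itpr3 was the other gene higher (0.37, 0.0216) and Prkce the other lower (-0.40, 0.0463). Itpr1 stood at 46.1, 73.0 and 82.3 CPM in injured, 27.8, 29.1 and 28.7 CPM in contralateral and 28.3 and 24.2 CPM in no injury libraries, so it was above all others at each day. Among Gs genes 2 of 10 were lower and 0 higher (median -0.09), the protein kinase A subunit genes Prkar2b (-0.59, adjusted p = 0.0148) and Prkacb (-0.38, 0.0222). Each of these values is a log2 fold change, with edgeR adjusted p.

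In the list of receptor assembly, binding partners, desensitisation and RNA editing 4 of 12 were higher and 3 lower (median log2 0.04). Arrb1, the arrestin that uncouples receptors, rose by 0.52 ± 0.08 (SE; adjusted p = 0.0071) and the receptor kinase gene Grk6 by 0.38 ± 0.07 (0.0131). Tmem35a, a chaperone of nicotinic receptors, fell by 0.62 ± 0.12 (0.0173) and the receptor kinase gene Grk2 by 0.34 ± 0.07 (0.0169). S100a10 (0.41, 0.027) and the RNA editing enzyme gene Adarb1 (0.56, 0.0358) were also higher and Grk3 lower (-0.56, 0.0336). Of 8 sensory channels and peptides linked to these receptors, only the sodium channel gene Scn9a passed (log2 -0.32, adjusted p = 0.0465), lower (median -0.20).

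Receptor genes were finally set beside markers of the neurons that carry them, from lists described by counts. Of 5 genes of Mrgprd-type nociceptors 4 were called lower and 0 higher (median log2 -0.77). They were Otoa (-0.95, adjusted p = 0.0036), Grik1 (-0.71, 0.0114), Lpar3 (-0.80, 0.0129) and Mrgprd (-0.77, 0.021). P2rx3 went the other way without being called (0.22, 0.107), higher on the injured side in 3 of 3 pools. Of 9 large-fibre genes 6 were lower and 1 higher (median -0.43), with Etv1 at -0.79 (0.00326), Runx3 at -0.60 (0.0121), Cntnap2 at -0.42 (0.0153) and Ntrk3 at -0.43 (0.0197), and Spp1 as the higher one at 0.72 (0.0433). Of 6 peptidergic genes 1 was higher, Adcyap1 (1.33, 0.000316), and 1 was lower, with a median of -0.20. Of 6 genes of itch-type neurons, which in the mouse express Htr1f, 0 were called, with the lowest p for Sst (log2 -0.89, adjusted p = 0.0551; median -0.05). Pan-neuronal genes were called lower in 3 of 10 and higher in 0 (median -0.30), with Isl1 at -0.40 (0.00837), Snap25 at -0.46 (0.038) and Rbfox3 at -0.32 (0.0419). Tubb3 (0.305, 0.0981) and Uchl1 (0.05, 0.712) went the other way without being called. The part of neuron numbers or of neuron RNA in the receptor values was not tested.

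In the lists of other cell types, 0 to 3 genes a list were called, against 10.1% higher and 8.02% lower over all genes. Satellite glia genes were higher in 3 of 7 (median log2 0.24), among them Lgi4 (0.58, adjusted p = 0.00416) and Glul (0.36, 0.0442). Sox10 of 6 Schwann cell genes (0.37, 0.0187; median 0.30), Aif1 of 7 macrophage genes (1.00, 0.0267; median 1.07), Kdr of 5 endothelial genes (0.39, 0.047; median 0.39) and Lum and Dcn of 6 fibroblast genes (1.11, 0.0287, and 0.57, 0.047; median 0.74) were higher, and 0 genes of these lists were called lower. S100b of the Schwann cell list (-0.28, 0.0586) and Fabp7 of satellite glia (-0.09, 0.541) went the other way without being called. The sum of the macrophage genes was 37.6 to 202 CPM in injured, 38.7 to 79.8 CPM in contralateral and 72.1 to 89.9 CPM in no injury libraries. Beside Htr2b and Htr2c, whose genes are also known from vessels and brain, 0 of 6 smooth muscle genes were called (lowest p for Rgs5, log2 -0.32, adjusted p = 0.199; median 0.21). Gad2 was higher of 4 central nervous system genes tested (1.54, 0.0178; median 0.10), at no more than 1.56 CPM. Of 2 choroid plexus genes tested 0 were called (Ttr 1.10, adjusted p = 0.0506, at most 2.37 CPM; median 0.26), and Kcne2 and Folr1 were at or near 0 in every library.

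**Figure D5:**
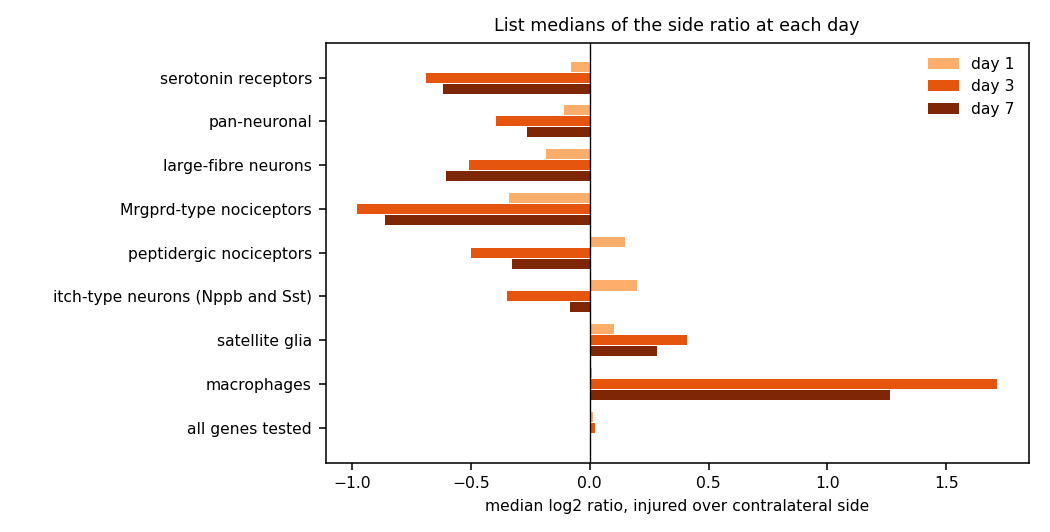
Median log2 ratio of the injured over the contralateral side (horizontal axis) at days 1, 3 and 7 for the 10 receptor genes, 7 marker lists and all genes tested; each bar is a median over a list's genes within 1 pool, with no error. The receptor median lies at -0.08, -0.69 and -0.62, the pan-neuronal median at -0.11, -0.40 and -0.26 and the macrophage median at 0.01, 1.71 and 1.26.

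For the called receptor genes above 1 CPM, the protein-coding genes with the nearest profiles were taken by the root mean square difference of centred log2 CPM over the 8 libraries, among 13717 genes. Islr2 (0.111), Fam163b (0.125) and Pmfbp1 (0.154) were nearest to Htr3b, against a median of 0.482 over all genes compared. Gm765 (0.0529), Oprl1, the nociceptin receptor gene (0.0564), and Kndc1 (0.0604) were nearest to Htr7, against 0.465. Nearest to Htr1d were A930033H14Rik (0.0683), Slc25a29 (0.0846) and Tll1 (0.0943), against 0.304. Among those nearest to Htr1b were Sos1 (0.0352) and Cadm1 (0.0371), against 0.262. Htr3b, whose profile spans 13.1 to 30.1 CPM, had the most distant nearest genes of the 4.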

How the data were processed

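The deposited values are whole-number read counts per gene in 8 library columns, all used. Tools are listed without a role in the submitters' processing notes, per which the authors used cutadapt 1.16, STAR 2.5.4a, featureCounts 1.6.3 and DESeq2 with GRCm38. Strandedness of the counting, treatment of multi-mapping reads and gene annotation were not given in the sources used here. GENCODE release M21 names matched 53706 of 53801 gene IDs.

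Counts were tested with edgeR 4.0.16 (R 4.3.3; quasi-likelihood, robust, TMM, filterByExpr at 10 counts, Benjamini-Hochberg adjustment over all tested genes, threshold 0.05). The injury effect used all 8 libraries with the pool as a block (3 residual degrees of freedom), since both sides come from the same mice per the design text. Correlations between the 2 sides, taken over genes as deviations from the state means, were 0.249, -0.0618 and 0.356 in the pools of days 1, 3 and 7. The block makes the estimate the mean side difference of the 3 operated pools. The trend added injured state by centred log2 day. The contralateral comparison used the no injury libraries summed to 1 sample, whose spread is taken as that of the other pools (both fits have 2 residual degrees of freedom). Fits with a pool or library left out have fewer. Side ratios used TMM log2 CPM with a prior count of 2 and have no test. Alternatives included DESeq2 1.42.0 and limma-voom (limma 3.58.1). The alternative against the no injury libraries alone takes the 2 sides of that pool as separate samples, though they come from the same mice. No 2 libraries agreed within sampling noise. The fits were also run on simulated counts with the same spread setting for all genes and no differences between pools. Such counts check the fitting steps and not the error of these data.

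The receptor genes and all lists were chosen with earlier results of these data known. Named genes are the 10 receptor genes, each list's called members (the 4 with the lowest p where more were called, the lowest p where none was), the 3 nearest profiles with a mean of at least 1 CPM, and Atf3, Gal, Xist and Kdm5d; some genes that meet the rule are not reported here. Tph1, Ppbp, Ms4a2, Itpr3, Prkce, S100a10, Adarb1, Grk3, Spp1, Kcne2 and Folr1 fall outside this rule and were chosen after their values were seen. The same holds for P2rx3, Tubb3, Uchl1, S100b and Fabp7.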

Additional observations from a re-analysis of the deposited data

How the results depend on the processing

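Of the 5 receptor genes lower on the injured side, 3 were called with no replicate block (Htr1b, Htr1d and Htr7) and 3 by DESeq2 (Htr1d, Htr3b and Htr7; Htr1b had adjusted p = 0.0656, and DESeq2 gave no adjusted p for Htr2b and Htr2c, which leaves 0 higher). Side as a further term left 0 lower and 0 higher, and the no injury libraries alone left 0 lower of 9 tested. Without each pool in turn 2 to 7 were lower and 0 to 1 higher. Htr1d and Htr7 were called in 9 of 11 alternatives each, Htr3b in 6 and Htr1b in 4. Htr2b was called in 6 of 11 and Htr2c in 4 of 10. In fits with the filter on low counts the direction of these last genes was fixed by their being tested. Such calls of Htr2b and Htr2c add nothing. The block changed no other call among the receptor genes than those of Htr2c and Htr3b. Contralateral over no injury, 3 receptor genes were higher without the filter (Htr1a, Htr3a and Htr3b) and 2 by DESeq2. The trend was falling for 1 gene by DESeq2 and for 0 to 3 without each pool in turn. Trend fits without an operated pool hold no error between operated pools.

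The sign of Htr2a, near 0, turned with no replicate block (-0.0387), DESeq2 size factors (-7e-04), no filter (-0.0046), DESeq2 (-0.0028), a side term (-0.131) and against no injury alone (-0.0923), with -0.1291 to 0.1007 without each pool in turn. Against no injury alone Htr1a was 0.294 and Htr3b 0.0191. The trend of Htr1f was 0.0077 with time as centred day. Without each pool in turn trends ran from -0.6194 to 0.3361 for Htr1a, -0.2667 to 0.2297 for Htr1b, -0.3612 to 0.4205 for Htr1f, -0.0797 to 0.3798 for Htr2a and -0.3523 to 0.2406 for Htr2c. The cause of these changes was not tested, apart from the fewer samples.

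Over all genes, higher and lower calls of the injury effect were 1644 and 1302 of 16244 in the main fit. They were 1558 and 1344 with no replicate block and 1348 and 1194 of 14257 by DESeq2. With a side term they were 6 and 0, and against no injury alone 703 and 442. Without the no injury pool they were 763 and 449, without day 1 2382 and 2287, without day 3 651 and 334 and without day 7 475 and 156. Contralateral calls, 21 and 26, were 276 and 422 without the filter and 85 and 80 by DESeq2. Trend calls were 0 and 0 in the main fit (596 rising and 703 falling at an unadjusted p under 0.05). They were 9 and 0 with DESeq2 size factors and 35 and 11 by DESeq2. Without day 1 they were 12 and 82, without day 3 281 and 238 and without day 7 644 and 570. The fits without a day take their error from the no injury pool alone. Depth limits Htr2b and Htr2c, at 0 to 14 and 6 to 25 reads.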
